A study of Mus musculus with 6 samples.

Results

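The 10 genes described here encode netrin receptors (Unc5a, Unc5b, Unc5c, Unc5d, Dcc and Neo1), secreted netrins (Ntn1 and Ntn4) and membrane-anchored netrin-Gs (Ntng1 and Ntng2). They were taken by symbol from the 32285 gene rows of the count matrices, and each of the 10 symbols matched 1 row. The rule uses no measured value, but the genes were chosen with earlier results of these data known.

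Their transcripts were counted in single nuclei of the prelimbic area (PL) of the medial prefrontal cortex of male C57BL/6 mice. Run offspring were reared until weaning by dams whose cage held a running wheel, and Sed offspring by dams in standard cages. After weaning they were group-housed (GH) or socially isolated (SI). Dataset 1 held 1 RunGH and 1 SedGH library from mice that had been through tube tests and were picked by their rank. The paper describes these Run and Sed males as top and bottom in rank within their groups. This may mean top-ranked Run and bottom-ranked Sed males, and rank and maternal environment then cannot be told apart in dataset 1. Dataset 2 held 1 library each of RunGH, SedGH, RunSI and SedSI from mice with no behavioral testing. Each library pooled the PL of 3 males born to different mothers, so a library, not a mouse or a nucleus, was the replicate, and the spread between mice within a pool cannot be seen. The labels give postnatal day 21, the age at weaning, whereas the methods describe the mice as adults at collection.

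After filtering, the libraries held 4997 to 9936 nuclei with a median of 1637 to 6250 UMIs (unique molecular identifiers, counted transcripts) per nucleus, the lowest being SedGH of dataset 2. Droplets under the UMI minimum set for nuclei, the emptiest left out, held a median of 1070 and 1202 UMIs in dataset 1. In dataset 2 they held 82 to 302, so the background measured this way was higher in dataset 1. The minimum, which bounds these droplets, was also higher there (2452 and 3156 UMIs, against 621 to 1587 in dataset 2). Pairs of libraries shared 5 to 22 nucleus barcodes. Nuclei were clustered within each dataset without the 10 genes and without their pathway partners, and clusters were named from marker genes. A class called "-like" (L2/3-like, PV-like and so on) had its markers, as did the mid-layer and deep Oprk1 classes, and the others are called by 2 of their leading genes. Of these others, Pde11a/Thsd7a and Nos1/Tacr1 nuclei were counted among inhibitory nuclei in dataset 2 and not in dataset 1. Pyramidal and inhibitory nuclei as a whole include the nuclei of their named classes, so tests of the whole and of its classes share nuclei. Summed over the 6 pyramidal markers, pyramidal nuclei held 1499 to 1760 CPM (UMI counts per 1000000 UMIs of a class in a library) and inhibitory nuclei 380 to 664, the upper values of the latter in dataset 1.

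Netrins are laminin-related guidance proteins. Netrin-1 attracts growing axons through DCC and can repel them through UNC5 proteins, alone or together with DCC. Neogenin, the DCC relative encoded by Neo1, also binds repulsive guidance molecules, and UNC5 proteins also bind FLRT adhesion proteins. Netrin-G1 and netrin-G2 are held at the membrane by a lipid anchor, do not bind DCC or UNC5, and instead pair across synapses with the netrin-G ligands encoded by Lrrc4c and Lrrc4. In the adult cortex these genes remain expressed in neurons and glia, where DCC has been linked to synaptic plasticity and to the development of prefrontal circuits.

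All 10 are protein-coding genes, placed here in mm10 with GENCODE M21 gene models. Unc5a (chr13:54949411-55006018, plus strand), Unc5b (chr10:60762593-60831581, minus) and Ntng2 (chr2:29194541-29253005, minus) are short, spanning 56.6, 69.0 and 58.5 kb. Ntn4 (chr10:93640681-93747207, plus), Neo1 (chr9:58874687-59036441, minus) and Ntn1 (chr11:68209364-68400823, minus) span 107, 162 and 191 kb. The longest are Ntng1 (chr3:109780040-110144011, minus; 364 kb), Unc5c (chr3:141465216-141834924, plus; 370 kb), Unc5d (chr8:28646717-29219636, minus; 573 kb) and Dcc (chr18:71253634-72351069, minus; 1097 kb). Intronic reads were counted, so span weighs on every level. Reads of Ntn1 and Ntng2 may be shared with Gm12305 and 6530402F18Rik, which overlap them on the same strand and are also counted in the files. Counted genes overlapping on the opposite strand were found for Unc5a (Hk3), Unc5c, Neo1 and Ntn4.

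Levels below are CPM, given as the lowest, median and highest of the 6 libraries. Per 100 kb of span, the mean level in pyramidal nuclei was 107 CPM for Ntng2, 87.5 for Unc5c, 87.0 for Neo1 and 81.6 for Unc5a. It was 53.5 for Dcc, 48.1 for Unc5d and 30.5 for Ntng1 on the same scale, and 2.32, 1.80 and 1.44 for Unc5b, Ntn4 and Ntn1. So 7 members were clearly expressed in pyramidal nuclei taken as a whole, while the secreted netrins and Unc5b were nearly absent from that sum. Several of the 7 differed strongly between layers, as given below. In OPC-like nuclei (oligodendrocyte precursors), Ntn1 reached 117 CPM per 100 kb, beside 238 for Unc5c, 155 for Dcc and 116 for Neo1.

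**Figure D1:**
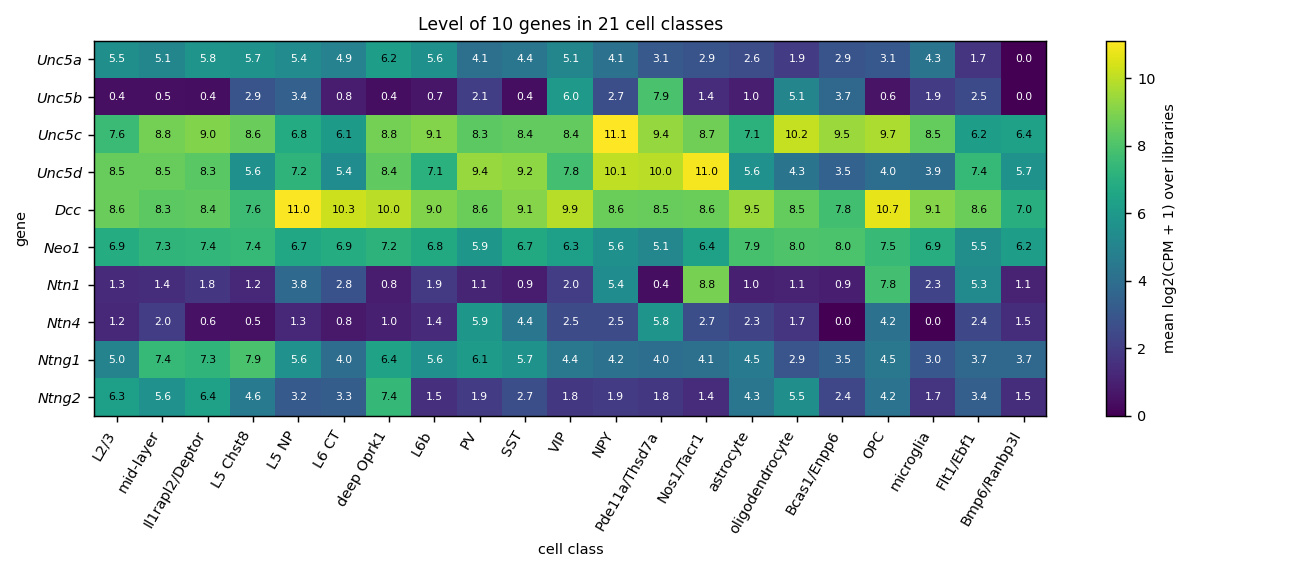
Mean of log2(CPM + 1) over libraries for each of the 10 genes (rows) in 21 cell classes (columns), with the value printed in each cell. Dcc and Unc5c are bright across most classes, while Unc5b, Ntn1 and Ntn4 are dark except in a few classes.

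Dcc, the attractive netrin-1 receptor, was highest in L5 NP-like nuclei (near-projecting layer 5 neurons). There it measured 2414 CPM in RunGH and 1601 in SedGH of dataset 1, and 2203, 2320, 2059 and 2228 in RunGH, SedGH, RunSI and SedSI of dataset 2. Next came OPC-like nuclei at 1176, 1696 and 2162 CPM, whose range overlapped that of L5 NP-like nuclei. L6 CT-like nuclei (corticothalamic layer 6 neurons) followed at 1095, 1239 and 1327 CPM, the deep Oprk1 class at 944, 968 and 1322, and VIP-like interneurons at 862, 955 and 1167. Astrocyte-like nuclei were the highest of the remaining glia at 446, 724 and 962 CPM. Among pyramidal classes Dcc was lowest in L5 Chst8-like nuclei at 121, 187 and 395 CPM, below every library of the L5 NP-like and L6 CT-like classes. Layer 5 thus held both ends of the pyramidal range.

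Unc5c, a repulsive receptor, peaked in NPY-like interneurons. It measured 2344 and 1481 CPM in RunGH and SedGH of dataset 1, and 2696, 2526, 2384 and 2138 in RunGH, SedGH, RunSI and SedSI of dataset 2. Oligodendrocyte-like nuclei held 779, 1168 and 1653 CPM, which overlapped NPY-like nuclei through the SedGH library of dataset 1, and OPC-like nuclei held 547, 912 and 1110. PV-like, SST-like and VIP-like interneurons stood at medians of 316, 362 and 366 CPM and overlapped each other. Unc5c was lowest of all 21 classes in L6 CT-like nuclei, at 43.9, 56.6 and 116 CPM, where Dcc was high.

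Unc5d, another UNC5 receptor, was highest in some interneuron classes. The small Nos1/Tacr1 class (3 to 16 nuclei per library) held 1780 and 1542 CPM in RunGH and SedGH of dataset 1, and 2114, 1713, 1761 and 3866 in RunGH, SedGH, RunSI and SedSI of dataset 2. It overlapped Pde11a/Thsd7a nuclei (454, 1199 and 1959 CPM), stood above NPY-like nuclei (883, 1053 and 1269) in every library, and lay above the medians of PV-like (639) and SST-like nuclei (602). VIP-like nuclei held less, at 132, 237 and 276 CPM. Pyramidal nuclei split by layer. L2/3-like nuclei held 336, 359 and 494 CPM and the mid-layer class 285, 388 and 444, against medians of 55.5 in L5 Chst8-like and 34.9 in L6 CT-like nuclei, which reached at most 98.2 and 95.5. In those last 2 classes free RNA alone would give 4.50% to 76.1% of the Unc5d UMIs, and in astrocyte-like, OPC-like and microglia-like nuclei it would give as many as were counted in some libraries, so a low Unc5d level there could not be told from none.

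Unc5b, best known from endothelial cells and vessel branching, was restricted among neurons. The Pde11a/Thsd7a class, in which 2 of the 4 markers fixed for chandelier cells were detected and whose dataset 1 cluster also carried pyramidal markers, held 83.4 and 132 CPM in RunGH and SedGH of dataset 1, and 403, 309, 202 and 706 in RunGH, SedGH, RunSI and SedSI of dataset 2. Unc5b was the leading gene of this class in both datasets, although it took no part in the clustering. The class held 12 to 64 nuclei per library and 118 Unc5b UMIs in all. Without marked doublets the RunGH library of dataset 1 kept 29 of its 64. VIP-like nuclei held 55.9, 62.4 and 75.3 CPM and oligodendrocyte-like nuclei 0, 76.6 and 155, where the 0 of 10 SedGH nuclei in dataset 2 allows up to 322 CPM (3 counts). L5 NP-like (4.39, 11.3 and 13.4 CPM) and L5 Chst8-like nuclei (3.70, 6.44 and 10.2) stood above the other tested pyramidal classes, which reached at most 1.35.

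**Figure D2:**
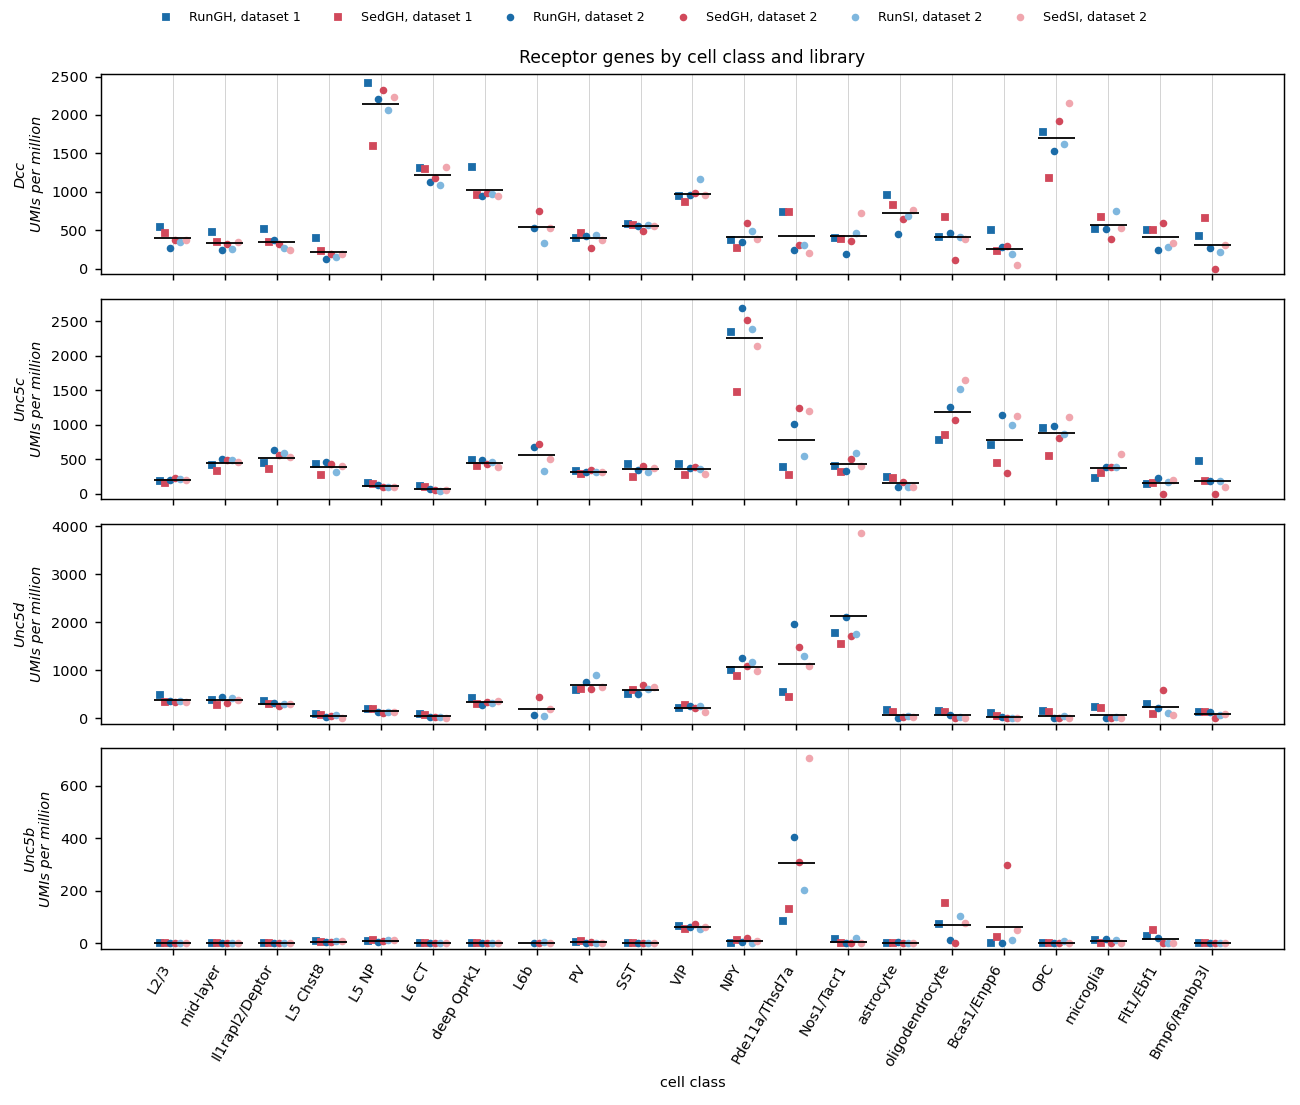
CPM (linear axes) of Dcc, Unc5c, Unc5d and Unc5b in each of 6 libraries (points, colored by group, squares for dataset 1) and the mean over libraries (black lines) in 21 classes. Dcc peaks in L5 NP-like and OPC-like nuclei, Unc5c in NPY-like and oligodendrocyte-like nuclei, Unc5d in Nos1/Tacr1 nuclei and Unc5b in Pde11a/Thsd7a nuclei.

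Unc5a, a neuronal UNC5 receptor, had 87.0% to 93.8% of its UMIs in pyramidal nuclei, which held 83.0% to 86.4% of all UMIs. The deep Oprk1 class was highest at 51.0, 73.0 and 118 CPM, but 12 of the other 20 classes overlapped it. L6 CT-like nuclei (18.1, 31.5 and 46.7 CPM) lay below it in every library, while the remaining pyramidal classes overlapped it. The order of the pyramidal classes was thus only partly resolved. Neo1, the neogenin gene, was detected in all 21 classes. Its highest medians among the 18 tested classes were in oligodendrocyte-like (209, 262 and 325 CPM, from only 10 to 45 nuclei per library) and astrocyte-like nuclei (182, 233 and 286). OPC-like nuclei (148, 180 and 241 CPM) followed, and the ranges of these glial classes overlapped. Its lowest medians were in NPY-like (37.3, 49.4 and 50.8) and PV-like nuclei (44.0, 56.9 and 71.8).

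Ntn1, the secreted ligand of Dcc and the UNC5 receptors, had its highest levels in small classes, although pyramidal nuclei held 45.9% to 53.8% of its UMIs (and 83.0% to 86.4% of all UMIs). Nos1/Tacr1 nuclei held 524 and 701 CPM in RunGH and SedGH of dataset 1, and 348, 571, 230 and 564 in RunGH, SedGH, RunSI and SedSI of dataset 2, each from 7 to 30 UMIs. OPC-like nuclei held 199 and 300 CPM in dataset 1 and 174, 241, 197 and 234 in the same order in dataset 2 (3 to 55 UMIs per library), and free RNA would give at most 1.14% of these UMIs. The 2 classes overlapped, and OPC-like nuclei stood above NPY-like nuclei (19.4, 39.1 and 102 CPM) in every library. Although OPC-like nuclei made up 0.111% to 0.528% of all UMIs, they held 8.11% to 21.1% of the Ntn1 UMIs. Among pyramidal classes Ntn1 was highest in L5 NP-like nuclei (9.40, 11.3 and 31.2 CPM), above every library of L6 CT-like nuclei (3.71, 5.69 and 8.86).

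Ntn4, a basement membrane netrin, was enriched in inhibitory nuclei, which held 45.5% to 71.2% of its UMIs against 6.96% to 8.46% of all UMIs. Pyramidal nuclei held 18.4% to 44.9% of its UMIs. PV-like nuclei measured 87.7 and 55.0 CPM in RunGH and SedGH of dataset 1, and 54.9, 44.0, 44.8 and 76.5 in RunGH, SedGH, RunSI and SedSI of dataset 2. SST-like nuclei (9.50, 19.3 and 30.9 CPM) lay below PV-like nuclei in every library. Pde11a/Thsd7a nuclei (7.33, 61.9 and 206 CPM, from 1 to 14 UMIs per library) overlapped both. OPC-like nuclei (0, 27.6 and 43.6 CPM, from 23 UMIs in all) overlapped SST-like nuclei.

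Ntng1 and Ntng2, the membrane-anchored netrin-Gs, differed in their layers. Ntng1 was highest in L5 Chst8-like nuclei, with 266 and 149 CPM in RunGH and SedGH of dataset 1, and 241, 296, 252 and 290 in RunGH, SedGH, RunSI and SedSI of dataset 2. The mid-layer class (144, 179 and 206 CPM) and the Il1rapl2/Deptor class (78.1, 188 and 220) overlapped it, while L2/3-like (23.3, 30.1 and 36.0) and L6 CT-like nuclei (8.94, 15.8 and 20.6) did not. Ntng2 was highest in the deep Oprk1 class, with 198 and 235 CPM in dataset 1 and 159, 184, 153 and 115 in dataset 2. It was intermediate in the Il1rapl2/Deptor class (57.6, 80.5 and 117 CPM) and in L2/3-like nuclei (54.3, 80.0 and 113). Inhibitory nuclei held 1.28, 3.59 and 11.5 CPM of Ntng2, and free RNA would give 21.1% to 135% of those UMIs. With free RNA subtracted the level was 0 to 3.81 CPM, so a low Ntng2 level there could not be told from none in every library.

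**Figure D3:**
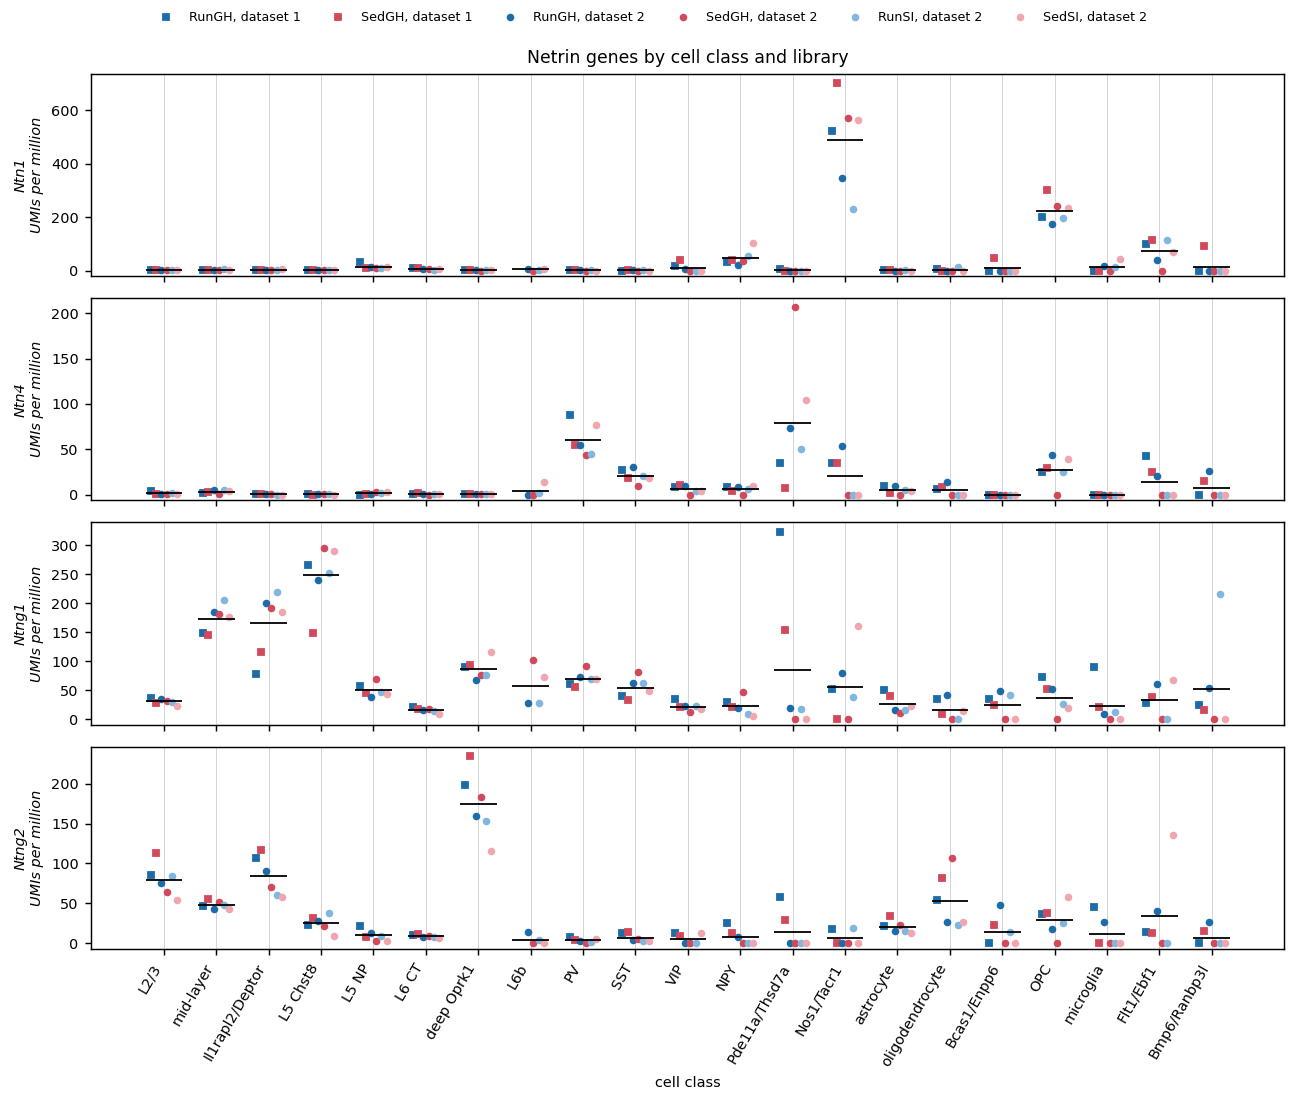
CPM (linear axes) of Ntn1, Ntn4, Ntng1 and Ntng2 in each of 6 libraries (points, colored by group, squares for dataset 1) and the mean over libraries (black lines) in 21 classes. Ntn1 stands out in Nos1/Tacr1 and OPC-like nuclei, Ntn4 in PV-like and Pde11a/Thsd7a nuclei, Ntng1 in L5 Chst8-like nuclei and in the mid-layer and Il1rapl2/Deptor classes, and Ntng2 in the deep Oprk1 class.

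Differences between classes were tested for 6 pairs of classes by edgeR with the library as a block, over all genes of both classes. Between pyramidal and inhibitory nuclei all 10 members passed an adjusted p of 0.05, beside 53.1% of all genes tested, so that most of the count is shared by genes in general. Unc5a, Dcc, Neo1, Ntng1 and Ntng2 were higher in pyramidal nuclei, and Unc5b, Unc5c, Unc5d, Ntn1 and Ntn4 were higher in inhibitory nuclei. Not every interneuron class shared the latter. Median Ntn1 was 1.87, 0.71 and 2.41 CPM in PV-like, SST-like and VIP-like nuclei, against 2.85 in pyramidal nuclei. Median Unc5c in the same order was 316, 362 and 366 CPM, against 330 in pyramidal and 2364 in NPY-like nuclei. Against pyramidal nuclei, median Unc5b was 0 (SST-like) to 1.57, and median Unc5d 237 (VIP-like) to 253. Median Ntn4 was higher in PV-like (55.0), SST-like (19.3) and VIP-like nuclei (6.63) than in pyramidal nuclei (1.67). Inhibitory nuclei included the Pde11a/Thsd7a and Nos1/Tacr1 classes in dataset 2 only, so their make-up differed between datasets. The largest differences were those of Ntn4 (log2 fold change −3.94 ± 0.19 (SE, n = 6 libraries), edgeR adjusted p = 1.24e-11) and Ntng2 (3.58 ± 0.17). Dcc differed least (0.25 ± 0.06, edgeR adjusted p = 0.00297).

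Against L2/3-like nuclei, 7 of 9 members tested differed in L6 CT-like nuclei, beside 42.3% of all genes. Dcc (log2 fold change 1.65 ± 0.09, edgeR adjusted p = 4.45e-11) and Ntn1 (1.93 ± 0.20) were higher in L6 CT-like nuclei. Unc5a, Unc5c, Unc5d, Ntng1 and Ntng2 were lower, from −0.65 ± 0.08 for Unc5a to −3.26 ± 0.09 for Ntng2. Neo1 (−0.01 ± 0.06) and Ntn4 (−0.91 ± 0.38) did not pass. L6 CT-like nuclei thus held more Dcc and Ntn1 than L2/3-like nuclei and less of the 3 UNC5 receptors that could be tested.

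In L5 NP-like nuclei all 9 members tested differed from L2/3-like nuclei, beside 41.3% of all genes. Dcc (2.35 ± 0.11), Ntn1 (3.14 ± 0.29), Unc5b (4.44 ± 0.45) and Ntng1 (0.53 ± 0.12) were higher. Unc5a, Unc5c, Unc5d, Neo1 and Ntng2 were lower. The Unc5b difference rested on 56 UMIs in L5 NP-like and 17 in L2/3-like nuclei, a ratio of 25.7 (95% counting interval 14.7 to 47.3). Calls of Unc5a (−0.28 ± 0.11) and Ntng1 were lost under several alternatives, and with clusters rebuilt on log-normalized counts Ntng1 fell to 0.07.

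PV-like and SST-like interneurons differed in 5 of 8 members tested, beside 24.2% of all genes. Ntn4 was higher in PV-like nuclei (log2 fold change 1.40 ± 0.16, edgeR adjusted p = 1.35e-09). Neo1 (−0.87 ± 0.12) and Dcc (−0.48 ± 0.07) were lower in PV-like nuclei. Unc5d (0.21 ± 0.08) and Ntng1 (0.37 ± 0.13) passed narrowly, and both calls were lost with DESeq2 and without the RunGH library of dataset 1, which left 3.

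In glia, astrocyte-like nuclei differed from pyramidal nuclei in 6 of 10 members, beside 52.4% of all genes. Unc5a (−2.90 ± 0.28), Unc5d (−2.39 ± 0.33), Ntng1 (−2.06 ± 0.30), Ntng2 (−1.92 ± 0.19) and Unc5c (−1.48 ± 0.27) were lower in astrocyte-like nuclei and Ntn4 (1.19 ± 0.37) was higher. The Ntn4 call was lost without the RunGH library of dataset 1. Dcc did not differ beyond its error (−0.07 ± 0.20).

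Oligodendrocyte-like and OPC-like nuclei differed in 3 of 6 members tested, beside 38.2% of all genes. Ntn1 was lower in oligodendrocyte-like nuclei (2 UMIs over all libraries against 169 in OPC-like nuclei). The ratio of OPC-like over oligodendrocyte-like levels was 53.9 (95% counting interval 14.7 to 449). Dcc was also lower in oligodendrocyte-like nuclei (log2 fold change −1.93 ± 0.27, edgeR adjusted p = 2.30e-08). Unc5b was higher in them, with 44 UMIs against 2 and a ratio of 34.5 (9.00 to 294). Unc5c (0.39 ± 0.25) was high in both. So the ligand and its attractive receptor were lower, and 1 repulsive receptor was higher, in oligodendrocyte-like than in OPC-like nuclei. With nuclei thinned to 1000 UMIs 1 of the 3 calls was left.

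Within interneuron classes, clusters found in each dataset separately differed in these genes. These values carry counting intervals only and no test. The 4 PV-like clusters of dataset 1 held 228 to 708 CPM of Dcc and the 4 of dataset 2 held 115 to 1021 CPM. The highest was a cluster led by Corin and Btbd11 in dataset 1 and one led by Erbb4 and Kcnc2 in dataset 2, and whether these match was not tested. A further dataset 2 cluster led by Corin (111 nuclei) scored best for PV markers but stayed unnamed, so it was not among the 4. Among VIP-like clusters, Unc5b stood at 98.6 CPM (95% interval 77.4 to 124) in the Frem1/Npas1 cluster of dataset 1 and at 89.7 (68.3 to 116) in that of dataset 2. The other VIP-like cluster of each dataset held 22.4 (12.8 to 36.4) and 23.6 CPM (12.2 to 41.3). Dcc ran the other way, with 661 and 853 CPM in the Frem1/Npas1 clusters and 1182 and 1271 in the others.

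SST-like clusters differed in other genes, Unc5d and Unc5c. In the Grik1/Npas1 clusters Unc5d was 926 CPM (dataset 1) and 917 (dataset 2), against 299 to 712 in the other SST-like clusters. Unc5c was 217 and 123 CPM there, the lowest SST-like level in each dataset. NPY-like nuclei of dataset 2 formed a Reln/Ndnf cluster with 826 CPM of Dcc and 103 of Ntn1 (95% interval 75.8 to 136). Their Pde11a/Sv2c cluster held 71.3 CPM of Dcc and 1.93 of Ntn1 (0.0488 to 10.7). Unc5c was above 2000 CPM in both.

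For each member, the 3 genes with the most similar level over the 124 class-by-library values were found by Pearson correlation of log2(CPM + 1). Points from 1 library share its depth and free RNA. Unc5d was most like Clmp (r = 0.78), Pam and Kcnc2, and Dcc most like Mdga2 (0.73), Ctnnd2 and Adgrl3. Unc5b was most like Pde11a (0.56), Dusp10 and Pthlh, and Ntn4 most like Gm31218 (0.62), Lhx6 and Kcnc2. Unc5a was most like Tub (0.70), Unc5c most like Apba1 (0.73), Neo1 most like Dnajc1 (0.84), Ntn1 most like Gm38505 (0.50), Ntng1 most like Sntb2 (0.73) and Ntng2 most like Lrriq1 (0.69). Among the members themselves the highest r was 0.49, between Ntng1 and Ntng2.

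A list of 47 further genes of netrin signaling held 9 other ligands and co-ligands, 9 partners at the membrane and 29 intracellular genes. Between pyramidal and inhibitory nuclei 18 of 43 tested were higher and 16 lower in pyramidal nuclei (79.1%, beside 53.1% of all genes), led by Kalrn (log2 fold change 1.36 ± 0.05), by Ptk2 (1.30 ± 0.07), which encodes focal adhesion kinase, and by Trim67 (−3.04 ± 0.17), a ubiquitin ligase that binds DCC. In L6 CT-like against L2/3-like nuclei 15 of 42 were higher and 9 lower (57.1%, beside 42.3% of all genes), and Prkca (−2.20 ± 0.07) and Robo1 (−1.35 ± 0.06), which encodes a Slit receptor, were the lowest in p. In L5 NP-like against L2/3-like nuclei 14 of 41 were higher and 13 lower (65.9%, beside 41.3% of all genes). Dscam, which encodes a netrin-binding adhesion protein, was higher in L5 NP-like nuclei (2.14 ± 0.09) and its relative Dscaml1 lower (−2.37 ± 0.11).

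Between PV-like and SST-like nuclei, 9 of the 40 tested genes of the list were higher in PV-like nuclei and 11 lower (50%, beside 24.2% of all genes). Lrrc4c, the netrin-G1 ligand, was higher in PV-like nuclei (log2 fold change 2.09 ± 0.09, edgeR adjusted p = 3.60e-24), and Dscam was lower (−1.97 ± 0.11). In astrocyte-like against pyramidal nuclei 8 of 44 were higher and 23 lower (70.5%, beside 52.4% of all genes). Rgma, which encodes a neogenin ligand, was higher in astrocyte-like nuclei (4.71 ± 0.17), where the Neo1 difference was 0.41 ± 0.18 and did not pass (edgeR adjusted p = 0.0607). Dock1 (5.26 ± 0.22), a Rac exchange factor, was higher too. In oligodendrocyte-like against OPC-like nuclei 4 of 28 were higher and 9 lower (46.4%, beside 38.2% of all genes), with Pak1 (3.18 ± 0.28), a kinase of the actin cytoskeleton, higher and Dscam (−3.57 ± 0.30) lower in oligodendrocyte-like nuclei.

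The study asked whether the dams' running wheel changed gene expression in the offspring. Run and Sed libraries were compared in 18 classes, with dataset and housing in the model. None of the 127 gene-by-class tests of the members passed (edgeR adjusted p of 0.306 or more). Pooled over the same fits, 0.0515% of all genes were called, and at most 0.245% in a class. At an unadjusted p under 0.05 there were 17 tests, beside 10785 of 167067 over all genes. Of the 17, 9 were Unc5a. DESeq2 called 1, Unc5a in pyramidal nuclei, and its share of all genes called is not given here. Of the 47 pathway genes introduced above, 0 of 629 tests passed in edgeR, with 20 under an unadjusted 0.05. In simulated data, a log2 change of 1 was called in 52% and of 2 in 85% of genes in pyramidal nuclei, and in 49% and 84% in PV-like nuclei, so smaller changes could be missed.

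Unc5a had more tests under an unadjusted 0.05 than any other member. In pyramidal nuclei it measured 47.9 CPM in RunGH and 69.6 in SedGH of dataset 1, 30.8 and 46.0 in dataset 2, and 36.3 in RunSI and 46.6 in SedSI. Every Run library thus lay below its Sed partner, while Run and Sed libraries overlapped when datasets were not kept apart. The log2 fold change was −0.54 ± 0.09 (SE, n = 6 libraries, edgeR adjusted p = 0.651). DESeq2 gave −0.53 ± 0.13 (adjusted p = 0.0204). Across all alternatives the change lay between −0.43 and −0.62 and the adjusted p between 9.98e-07 and 0.99994. The low values came from fits that held the dataset 2 libraries alone or left out a library of dataset 1. In all of these the Run effect rests on dataset 2 alone, so they are not separate checks. Those fits called far more genes in general, for example 17.8% of all genes in pyramidal nuclei of dataset 2.

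Layer by layer, Unc5a was lower in Run in 20 of 21 comparisons (7 pyramidal classes in 3 Run and Sed pairs), and the 95% counting interval lay below 0 in 15. Classes of a pair come from the same libraries, so these are 3 pairs and not 21 replicates. The exception was L5 NP-like nuclei of the SI pair (41.0 CPM in RunSI, 33.9 in SedSI), and L5 Chst8-like nuclei of that pair were nearly equal (46.6 in both). Outside the pyramidal classes the SI pair did not show this direction throughout: Unc5a measured 17.9 CPM in RunSI and 16.9 in SedSI in inhibitory nuclei, and 23.6 (21 UMIs) and 9.20 (3 UMIs) in SST-like nuclei. In free RNA, counted from 60 to 199 Unc5a UMIs a library, the Run value was above the Sed value in each pair. Unc5a stood at 49.6 CPM in the free RNA of RunGH and 43.2 in SedGH of dataset 1 (187 and 166 UMIs). The values were 70.6 and 41.6 in dataset 2 (71 and 199 UMIs), and 57.2 and 52.7 in RunSI and SedSI (60 and 68 UMIs). No counting interval is given for these pairs, and whether free RNA differed between Run and Sed was not tested. With free RNA subtracted the change was −0.62 ± 0.11. Genes of 50 to 100 kb, the span class of Unc5a, had a median change of −0.02 in the fit without this subtraction. Of the other receptors, Unc5c was higher in Run in 18 of 21 comparisons, with 10 intervals above 0 and 2 below. Unc5d was higher in 17 of 21, with 12 above 0 and 3 below, and Neo1 in 17 of 21, with 6 above 0 and 1 below. Of those above 0, the dataset 1 pair alone gave 6 for Unc5c and 6 for Unc5d. Dcc was lower in Run in 11 of 21, with 8 intervals below 0 and 7 above. The share of all genes with such intervals is not given here, so these counts, those of Unc5a included, have no background beside them.

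**Figure D4:**
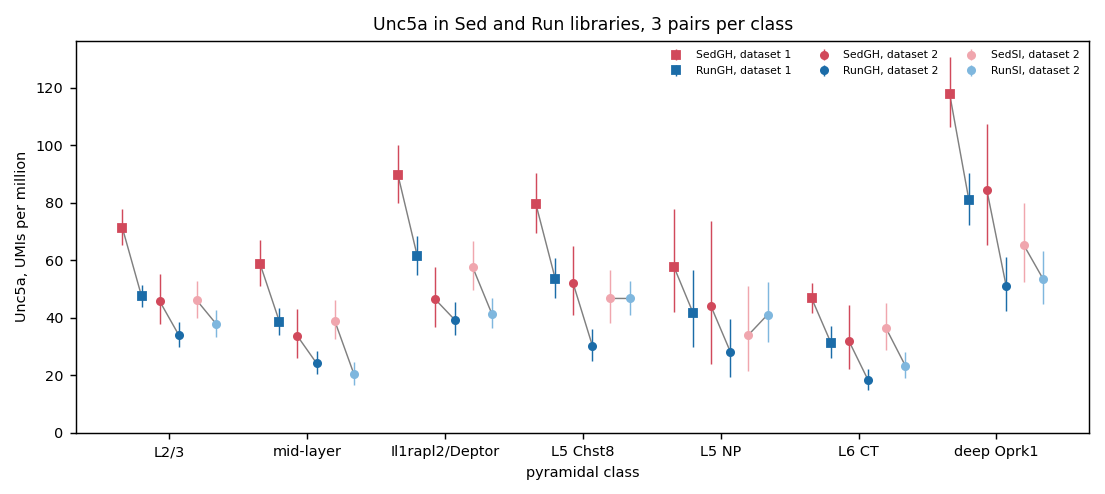
Unc5a level (CPM, linear axis from 0) in Sed (red) and Run (blue) libraries of 7 pyramidal classes, each line joining the 2 libraries of a pair and bars giving 95% counting intervals. The Run library is lower in 20 of 21 pairs, and the L5 NP-like class of the isolated pair is the exception.

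Within dataset 2 alone, 12 of 114 tests passed, beside 5.04% of all genes (this fit was added after the data had been seen). All 12 were in pyramidal nuclei or their classes. In the classes of these calls, 3.98% (deep Oprk1) to 17.8% (pyramidal nuclei) of all genes were called. Calls over all genes there were also mostly lower in Run, for example 1811 lower and 1230 higher in pyramidal nuclei, and 309 and 128 in the deep Oprk1 class. Unc5a gave 5 of them, lower in Run in pyramidal nuclei and in the mid-layer, Il1rapl2/Deptor, L6 CT-like and deep Oprk1 classes (log2 fold changes −0.48 to −0.82). The pyramidal sum includes the nuclei of those classes, so these calls are not separate. Dcc was lower in Run in the mid-layer class (−0.49 ± 0.09), in L5 Chst8-like nuclei (−0.55 ± 0.11) and in L6 CT-like nuclei (−0.26 ± 0.08). Ntng1 was lower in L5 Chst8-like nuclei (−0.36 ± 0.11) and in the deep Oprk1 class (−0.52 ± 0.16), and Unc5d in the deep Oprk1 class (−0.40 ± 0.11). Ntng2 was higher in L5 Chst8-like nuclei (1.06 ± 0.24). Each contrast had 2 Run against 2 Sed libraries, so 1 residual degree of freedom per gene. The Run library was the deeper in both pairs, with a median of 3396.5 UMIs per nucleus in RunGH against 1637 in SedGH, and 4033 in RunSI against 3600 in SedSI. Depth and maternal environment therefore cannot be told apart here.

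Between SI and GH libraries none of the 127 tests passed (edgeR adjusted p of 0.923 or more), with 7 under an unadjusted 0.05 (3409 of 167067 over all genes), 0 called by DESeq2, and 0.00539% of all genes called. In dataset 2 alone 1 of 114 passed, beside 0.133% of all genes. Dcc in the Il1rapl2/Deptor class measured 371 and 321 CPM in RunGH and SedGH and 266 and 245 in RunSI and SedSI, a log2 change of −0.43 with isolation (edgeR adjusted p = 0.0179). Both SI libraries lay below both GH libraries. The difference of the Run effect between housings passed in 0 of 133 tests, with 10 under an unadjusted 0.05 and 0.00548% of all genes called, and DESeq2 was not run for it. The lowest unadjusted p among these was Ntng2 in L5 Chst8-like nuclei (27.6 and 22.2 CPM in RunGH and SedGH of dataset 2, 37.8 and 9.24 in RunSI and SedSI, edgeR adjusted p = 0.824).

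More of the members' tests passed between the 2 datasets than between the groups. Of 127 tests 35 passed, 5 higher and 30 lower in dataset 2, which is 27.6%, beside 30.1% of all genes (5.25% to 40.4% per class). A share near the background is no result about the members. Dataset, behavioral testing, the choice of mice by rank, library depth, free RNA and the make-up of the classes cannot be told apart here. Classes were named in each dataset apart, and a dataset 1 cluster of 954 nuclei that scored best for mid-layer markers stayed unnamed. Unc5a was lower in dataset 2 in pyramidal nuclei (log2 fold change −0.78 ± 0.11, edgeR adjusted p = 0.00443) and in 6 of the 7 pyramidal classes tested, from −0.70 to −0.93. Dcc was lower in pyramidal nuclei (−0.53 ± 0.11), in L2/3-like, mid-layer, Il1rapl2/Deptor and L5 Chst8-like nuclei, in Pde11a/Thsd7a and in astrocyte-like nuclei. Ntng2 was lower in pyramidal nuclei (−0.60 ± 0.13), in 3 of their classes and in inhibitory nuclei. Of the pathway genes, 40 of 629 tests were higher and 201 lower in dataset 2 (38.3%, beside 30.1% of all genes and 5.25% to 40.4% per class). The calls over all genes are not split by direction here, so the split of the list has no background beside it.

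In the opposite direction, Ntng1 (0.89 ± 0.17) and Unc5c (0.43 ± 0.12) were higher in dataset 2 in the Il1rapl2/Deptor class. Ntng1 there measured 78.1 and 116 CPM in the libraries of dataset 1 and 185 to 220 in those of dataset 2, with no overlap. Unc5b (2.07 ± 0.45), Unc5c (1.80 ± 0.33) and Unc5d (1.92 ± 0.29) were higher in Pde11a/Thsd7a nuclei of dataset 2. In that class the pyramidal markers summed to 931 and 1158 CPM in dataset 1 and 288 to 573 in dataset 2. Without marked doublets, 29 of 64 RunGH and 19 of 25 SedGH nuclei of dataset 1 were left. In dataset 2 the numbers were 19 of 20, 13 of 13, 15 of 17 and 12 of 12 in RunGH, SedGH, RunSI and SedSI. Lgr5 and Lgr6 were among the leading genes of the dataset 1 cluster, but led a separate, unnamed cluster in dataset 2. The class may thus not hold the same kinds of nuclei in both datasets, and the part of this in the result was not tested. With clusters rebuilt on log-normalized counts Unc5b was −0.42 there.

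In pyramidal nuclei the change between datasets also differed by gene span. Its median over all genes tested was 0.47 for spans under 20 kb, −0.09 for 20 to 50 kb, −0.27 for 50 to 100 kb, −0.42 for 100 to 300 kb and −0.46 above 300 kb. Against these, Unc5a (−0.78) and Ntng2 (−0.60) lay below the median of their span class and Dcc (−0.53) near it, while Ntng1 (0.48 ± 0.17) and Unc5c (0.22 ± 0.16) lay above theirs and did not pass. Some changes shrank with free RNA subtracted. Unc5d in L6 CT-like nuclei went from −1.56 to −0.37 and in L5 Chst8-like nuclei from −1.39 to −0.24 once free RNA was subtracted, and neither then passed. Over all members 23 tests passed after the subtraction. For that fit and the following ones the share of all genes is not given here. Without the RunGH library of dataset 2 there were 12 calls, 10 of them among the 35, and without the SedGH library of dataset 1 there were 50.

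**Figure D5:**
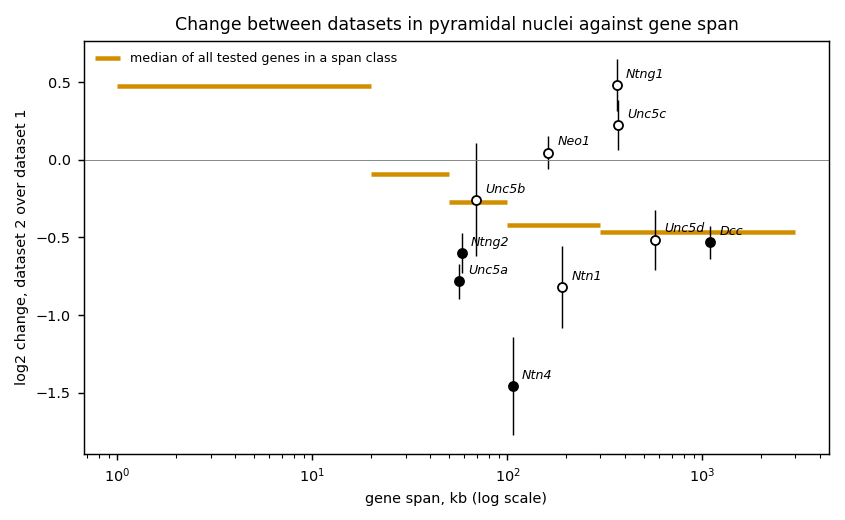
Log2 change between dataset 2 and dataset 1 in pyramidal nuclei (y axis) of the 10 genes against gene span (x axis, log scale), with standard errors, filled points for adjusted p under 0.05, and the median of all tested genes in 5 span classes (bars, the first drawn from 1 kb). Unc5a, Ntng2 and Ntn4 lie below their span class, Dcc near it, and Ntng1 and Unc5c above it.

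The Run and Sed difference itself was compared between dataset 1 and dataset 2, with 14 of 133 tests passing (the Run-minus-Sed difference was higher in dataset 2 in 2 and lower in 12), beside 3.2% of all genes (0.0% to 12.8% per class). Dcc made up 5 of the 14. The mid-layer class may not hold the same kinds of nuclei in both datasets, as said above. In the mid-layer class Dcc measured 477 CPM in RunGH and 341 in SedGH of dataset 1, against 247 and 319 in RunGH and SedGH and 252 and 342 in RunSI and SedSI of dataset 2. Run was thus above Sed in dataset 1 and below it in both pairs of dataset 2. In L5 Chst8-like nuclei Dcc did the same, at 395 and 236 CPM in dataset 1, then 121 and 186, and 156 and 189. Ntng1 followed in the same class (266 and 149 CPM, then 241 and 296, and 252 and 290), whereas Ntng2 ran the other way (22.7 and 31.2, then 27.6 and 22.2, and 37.8 and 9.24).

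The difference was largest for Dcc in L5 Chst8-like nuclei (log2 −1.35 ± 0.19, edgeR adjusted p = 5.36e-06) and for Ntng2 there (1.47 ± 0.39). In L5 NP-like nuclei Dcc differed by −0.79 ± 0.11. Each dataset 1 arm had 1 library, so the dataset 1 effect rests on 1 pair, and its spread was assumed to be that of the libraries of dataset 2. Rank in the tube test may also differ between those arms, and cannot then be told apart from the Run effect. Depth turned between datasets as well. Median UMIs per nucleus were 5586 in RunGH and 6250 in SedGH of dataset 1. In dataset 2 they were 3396.5 in RunGH and 1637 in SedGH, and 4033 in RunSI and 3600 in SedSI. Run was thus shallower than Sed in dataset 1 and deeper in dataset 2, and the part of depth in these differences was not tested. With nuclei thinned to 1000 UMIs, 5 of the 14 still passed, 8 kept their direction and did not pass, and Ntng1 in the Il1rapl2/Deptor class turned to −0.0489. Unc5a was not among the 14.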

How the data were processed

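Single-nucleus libraries (10x 3′ V3, nuclei of 3 males pooled in each of 6 libraries) were sequenced by the authors, who aligned reads to mm10 with introns included and deposited raw UMI counts per gene for every barcode. The methods and the submitters' processing notes name Cell Ranger 6.0.0, while the file headers name another release, and strand use is not given in the sources used here. Gene identifiers in the feature files were used as deposited.

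Nuclei had 500 to 4000 genes, at most 1% mitochondrial UMIs and a library-specific UMI minimum (621 to 3156). Doublets were marked but kept. Each dataset was clustered apart (scanpy 1.11.5, leidenalg 0.10.2) without the members and 47 pathway genes. Free RNA was profiled from droplets with at most 100 UMIs. UMI counts were summed per library and class, and the 18 classes with at least 10 nuclei in all 6 libraries were tested by edgeR 4.0.16 (quasi-likelihood, Benjamini-Hochberg adjustment over all genes of a fit, threshold 0.05) with maternal environment, housing and dataset as terms, leaving 2 residual degrees of freedom, or with library as a block for class contrasts. Libraries pool animals, so p-values measure the spread between pools. Dataset is the replicate block given by the labels, and same-dataset libraries deviated together (correlations 0.43 to 0.76 over 18 classes). Alternatives used DESeq2 1.42.0, other filters, 1000-UMI thinning, free RNA subtraction and left-out libraries. Fits were tested on simulated data. Intervals are 95% and, like floors of 3 counts, cover counting error only. All 10 members are named, and pathway genes from the 3 lowest p per contrast, of which some are not reported here. Members and lists were chosen with earlier results of these data known.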

Additional observations from a re-analysis of the deposited data

Results flagged for a closer look

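The difference between Run and Sed libraries differed between dataset 1 and dataset 2 in 14 gene-by-class tests (edgeR interaction term, adjusted over all genes of a class). Values are log2 differences of the Run effect, dataset 2 minus dataset 1, and dataset 1 has 1 Run and 1 Sed library.

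For Dcc they were −1.35 in L5 Chst8-like nuclei, −0.998 in the mid-layer class, −0.79 in L5 NP-like nuclei, −0.60 in the deep Oprk1 class and −0.54 in the Il1rapl2/Deptor class. For Unc5c they were −1.15 in SST-like, −0.97 in L5 Chst8-like and −0.57 in pyramidal nuclei, and for Unc5d −0.92 in the deep Oprk1 class and −0.71 in pyramidal nuclei. For Ntng1 they were −1.25 in L5 Chst8-like nuclei, −0.53 in pyramidal nuclei and 0.60 in the Il1rapl2/Deptor class, and for Ntng2 1.47 in L5 Chst8-like nuclei. With nuclei thinned to 1000 UMIs 5 of the 14 still passed and 1, Ntng1 in the Il1rapl2/Deptor class, changed sign. The cause was not tested.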

How the results depend on the processing

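Counts in this section are of member tests that passed, mostly without the share of all genes in the same fit. They show how calls depend on the processing and are no result about the members. The Run against Sed count of 0 became 1 with DESeq2 and 1 without the filter on low counts. In dataset 2 alone the count was 12, beside 5.04% of all genes and 3.98% to 17.8% in the classes of these calls (a fit added after the data had been seen). It ranged from 0 to 13 with 1 library left out, being 10 without RunGH and 13 without SedGH of dataset 1. In both of these fits the dataset term takes up the library left from dataset 1. Their Run effect thus rests on dataset 2 alone, and they are not checks separate from the dataset 2 fit. Fits without a library of dataset 1 called far more genes in general. The SI against GH count of 0 became 1 in dataset 2 alone and ranged from 0 to 1 with 1 library left out. The 35 calls between datasets became 22 with DESeq2 and 23 with free RNA subtracted, and 12 to 50 with 1 library left out (12 without RunGH of dataset 2). Unc5b in Pde11a/Thsd7a nuclei turned to −0.42 with log-normalized clustering. The 14 differences of the Run effect between datasets became 6 with 1000-UMI thinning, where Ntng1 in the Il1rapl2/Deptor class turned to −0.0489. The 0 differences between housings became 1 with at least 1000 genes per nucleus and 2 with log-normalized clustering. PV-like against SST-like calls fell from 5 to 3 with DESeq2, with at least 1000 genes, with thinning and with no replicate block, and were 3 to 5 with 1 library left out (3 without RunGH of dataset 1). Oligodendrocyte-like against OPC-like calls fell from 3 to 1 with thinning. Thinning and log-normalized clustering are alternative settings, and no cause of these changes was tested. Without the replicate block (dataset) the Run and housing counts stayed 0, and without the library block the other class contrasts gave 9, 6, 6, 7 and 2 calls. The call of Unc5a between L5 NP-like and L2/3-like nuclei was lost under several alternatives, DESeq2 among them. Log-normalized clustering gave no oligodendrocyte-like or microglia-like class in dataset 1, so those have no value there. Depth limits small classes, and simulated log2 changes of 1 were called in 25% of genes in oligodendrocyte-like nuclei.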
